A study of Homo sapiens with 15 samples.

Results

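CREBBP and EP300 encode CBP and p300, the paralogous acetyltransferases at which the compounds of this experiment are directed. Their transcripts, and those of 8 further lysine acetyltransferase genes, were followed in MM.1S cells, a line grown from a human multiple myeloma carrying a translocation of the transcription factor gene MAF to the immunoglobulin heavy chain. The 10 genes, CREBBP, EP300, NCOA1, NCOA2, NCOA3, KAT2A, KAT2B, KAT6A, KAT6B and KAT8, were taken by symbol from the 47459 gene rows with values. The rule that takes them uses no measured value, though the set was chosen with earlier results of these data known. All 10 were among the 16104 genes tested.

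The cells received 1 of 5 treatments for 6 h. A-485 at 100 nM inhibits the catalytic site of CBP and p300. GNE-781 at 100 nM occupies the acetyl-lysine pocket of their bromodomain. The combination held A-485 and GNE-781, each at 100 nM, and dCBP-1 at 100 nM is a bifunctional molecule that brings CBP and p300 to the cereblon ubiquitin ligase for degradation. DMSO, the solvent, was the control, and no group with a cereblon ligand alone was analysed here. Each group had 3 libraries, making 15 from this 1 line. Transcripts were counted, not proteins, so none of the values below measures how much CBP or p300 was degraded.

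Lysine acetyltransferases move the acetyl group of acetyl-CoA to lysines of histones and other proteins, and bromodomain proteins read the mark. CBP and p300 are recruited by transcription factors to enhancers and promoters, where they acetylate histone tails and bind the transcription machinery. In plasma cell tumours they are known for sustaining enhancers of lineage transcription factor genes. The other genes belong to separate families. NCOA1, NCOA2 and NCOA3 are the p160 coactivators, which bind hormone-bound nuclear receptors and bring in CBP and p300. KAT2A (GCN5) and KAT2B (PCAF) are paralogous catalytic subunits of the SAGA and ATAC complexes. KAT6A and KAT6B are paralogs of the MYST family that work with BRPF scaffold proteins, and KAT8 (MOF), also of that family, acetylates histone H4 in the MSL and NSL complexes.

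Values are the authors' normalized read counts, which are reads divided by 1 factor per library. Because the libraries were primed at the 3′ ends of mRNAs, a transcript's reads do not scale with its length. A gene is said to have risen or fallen where its limma adjusted p was below 0.05 over all genes tested, and a log2 fold change is a difference of log2(value + 1).

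The sequence upstream of the transcription start is shown for the paralog pair CBP and p300 and for the KAT2 paralogs. RefSeq promoter entries on GRCh38.p14 matched 7 of the 10 genes, and the 250 bases before the start are printed 5′ to 3′ on the strand of the gene. Capitals mark matches, on either strand, to TGACG, the core of the cyclic AMP response element that CREB proteins bind, to CACGTG, the E-box, or to GGGCGG, the GC box.
CREBBP, chr16:3880714-3880963, minus strand: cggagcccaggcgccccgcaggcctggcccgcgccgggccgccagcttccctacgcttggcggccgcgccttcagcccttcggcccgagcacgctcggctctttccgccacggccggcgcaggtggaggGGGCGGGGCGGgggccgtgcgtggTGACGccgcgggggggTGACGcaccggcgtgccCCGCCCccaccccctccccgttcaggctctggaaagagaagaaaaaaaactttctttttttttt
EP300, chr22:41092342-41092591, plus strand: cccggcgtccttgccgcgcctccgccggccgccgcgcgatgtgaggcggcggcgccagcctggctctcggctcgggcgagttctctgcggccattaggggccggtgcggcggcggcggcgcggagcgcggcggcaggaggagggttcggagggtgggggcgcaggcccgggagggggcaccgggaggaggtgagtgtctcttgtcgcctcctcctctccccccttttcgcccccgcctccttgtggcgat
KAT2A, chr17:42121368-42121617, minus strand: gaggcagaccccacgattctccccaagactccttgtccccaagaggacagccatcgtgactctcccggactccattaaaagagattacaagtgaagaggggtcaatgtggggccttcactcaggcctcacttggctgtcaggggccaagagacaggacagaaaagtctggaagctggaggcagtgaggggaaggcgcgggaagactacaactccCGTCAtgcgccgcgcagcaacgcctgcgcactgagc
KAT2B, chr3:20040196-20040445, plus strand: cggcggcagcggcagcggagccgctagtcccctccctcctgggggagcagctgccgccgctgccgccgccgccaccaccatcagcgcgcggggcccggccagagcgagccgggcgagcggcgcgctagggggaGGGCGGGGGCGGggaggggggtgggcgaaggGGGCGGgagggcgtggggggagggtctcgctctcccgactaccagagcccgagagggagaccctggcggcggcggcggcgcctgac

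The CREBBP window held 2 matches to TGACG and 3 to GGGCGG, a pair of which share a base. None of the 3 motifs was found in the EP300 window. KAT2A had 1 match to TGACG, and KAT2B had 3 to GGGCGG, a pair of them adjacent. Among 35116 promoter windows of the same length, 21.2% held TGACG, 6.34% held CACGTG and 42.6% held GGGCGG. The windows of CREBBP, EP300 and KAT2B were rich in G and C, at 72.4%, 76.8% and 80.8%, and that of KAT2A was at 58.8%, beside a median of 58% over the 35116 windows. The NCOA1 window had 10 matches to GGGCGG, and those of NCOA3 and KAT6B had no match to any of the motifs. For NCOA1 and NCOA3 the bases after the start were not found in a transcript of the gene, so their starts are less certain. CREBBP had 2 start entries, NCOA1 3 and KAT6B 3, and the first listed was used. Such matches describe letters only, and no binding was measured.

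Library depth was 13.10 to 18.29 M reads, and the 10 genes had 142 to 4311 reads in a library. DMSO replicates 1 and 2 stood apart, with 23.1% and 19.7% of reads on mitochondrial genes against 14.3% to 17.0% in the other 13 libraries. They also had fewer genes detected at equal depth, 16287 and 17386 against 18727 to 20578, so results against DMSO are also given without them. Such a fit sets 3 treated libraries against 1 DMSO library, DMSO replicate 3, which is assumed to vary like the other groups. A call lost there can come from the smaller number of libraries, so its fold change is given beside it. Leaving them out also lowered the median log2 fold change of all genes tested. It went from -0.03 to -0.19 with A-485 and from 0.07 to -0.11 with GNE-781. With the combination it went from 0.09 to -0.09, and with dCBP-1 from 0.07 to -0.12. The part of this shift in the values of single genes was not tested. All 12 plasma cell and myeloma markers were tested, and their summed level was 64719 to 79558 with A-485, 47090 to 53239 with GNE-781, 42098 to 53076 with the combination, 26967 to 28876 with dCBP-1 and 87408 to 93970 with DMSO. Summed markers of T cells, myeloid cells, erythroid cells, fibroblasts and epithelial cells lay between 0 and 155 in every library, with CD3D, TRBC1, CSF1R, FCGR3A, S100A8, HBA2, ALAS2, KRT19 and KRT5 at 0 in all. The erythroid sum was 26.7 to 37.9 with dCBP-1 and 75.9 to 155 with DMSO, and the epithelial sum 19.4 to 28.5 with dCBP-1 and 0 to 2.43 with DMSO. The part of these marker differences in the results below was not tested. Whether replicates came from separate cultures is not given, and the p-values reflect the spread among libraries and no more.

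In DMSO cells the transcripts spanned about an order of magnitude. KAT6A was highest, at a mean normalized read count of 2965 ± 516 (SD, n = 3 here and for each mean below). CREBBP followed at 1264 ± 163, EP300 at 1193 ± 106 and NCOA3 at 1090 ± 404. Then came KAT2A at 907 ± 180, KAT6B at 711 ± 111, KAT2B at 585 ± 66.0, NCOA2 at 579 ± 50.6, NCOA1 at 526 ± 78.6 and KAT8 at 239 ± 48.5. Of neighbours in this order, KAT6A lay above CREBBP and NCOA1 above KAT8 with no overlap of their 3 libraries. Every other neighbouring pair overlapped. The mean of the middle gene among all genes tested was 179, so all 10 were transcribed above it.

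**Figure D1:**
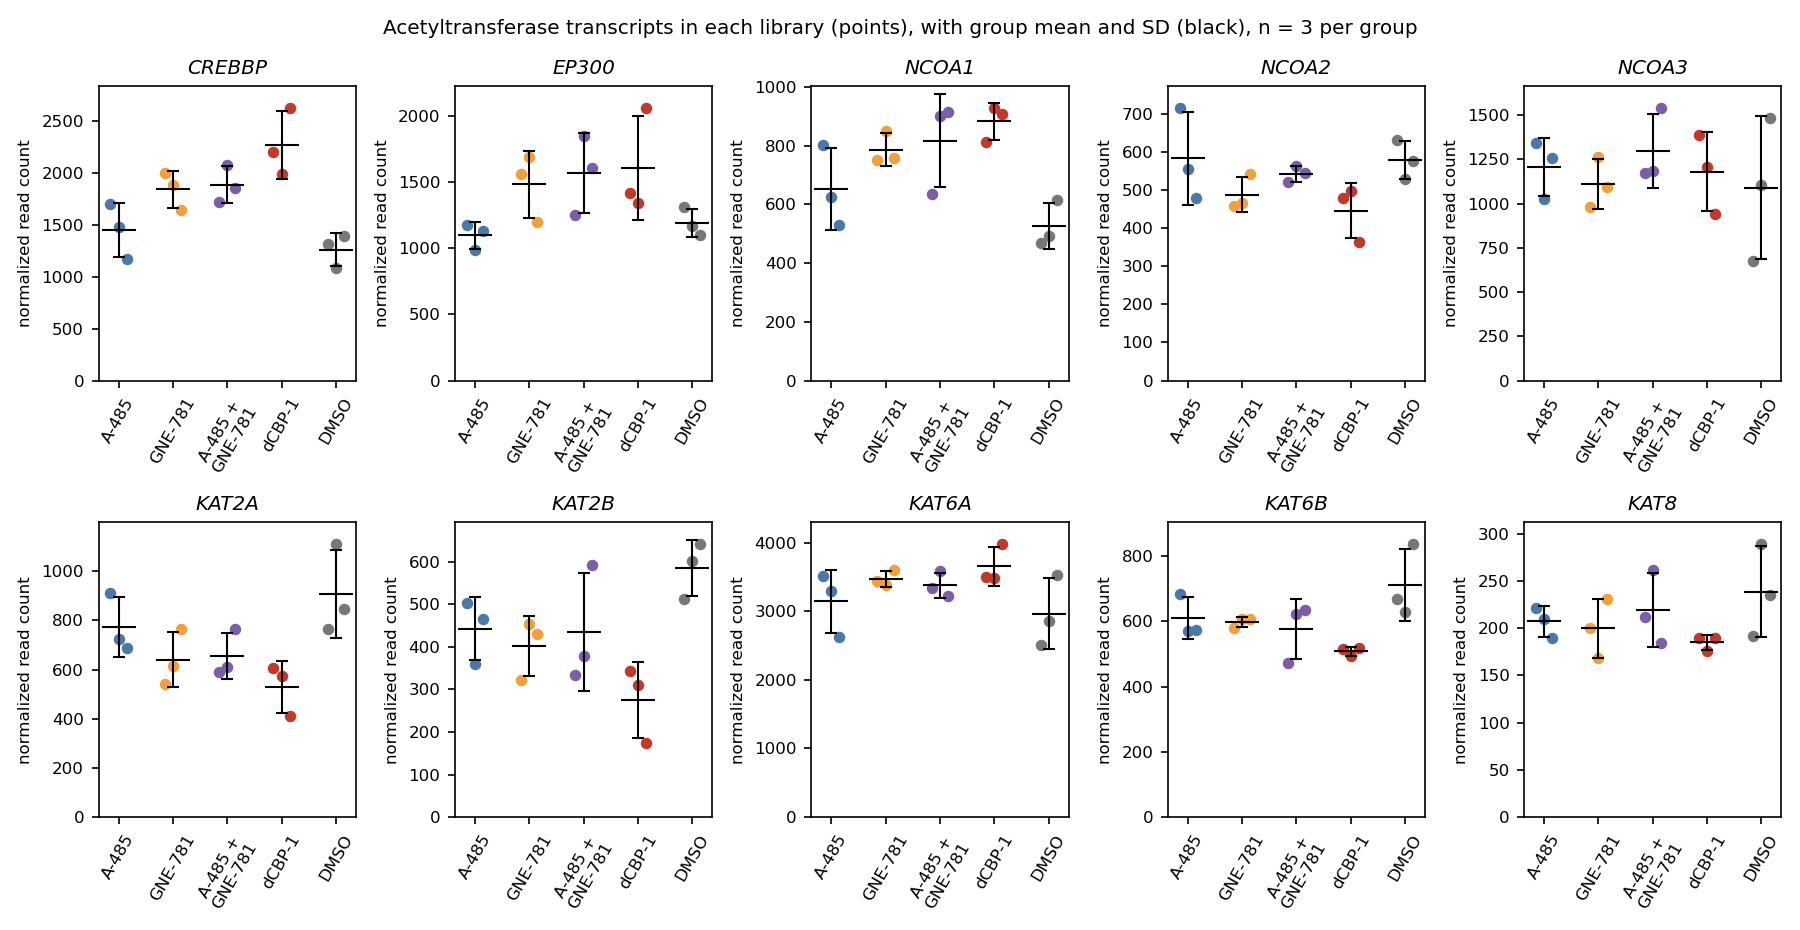
Normalized read count (vertical axes, starting at 0) of each of the 10 genes in each library (points), by treatment (horizontal axes), with the mean and SD of 3 libraries in black. CREBBP, EP300 and NCOA1 with dCBP-1 lie above all DMSO libraries, and NCOA2, KAT2A, KAT2B, KAT6B and KAT8 lie below them.

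Treatment with dCBP-1 changed 6 of the 10 genes against DMSO. CREBBP, EP300 and NCOA1 rose, and KAT2A, KAT2B and KAT6B fell. Over all genes tested 37.8% were called in this comparison, 19.3% rising and 18.5% falling. The median log2 fold change was -0.09 over the 10 genes and 0.07 over all genes tested. The dCBP-1 libraries lay entirely above the DMSO libraries for 3 of the 10 genes and entirely below for 5, where 44.3% of all genes tested did not overlap, 21.8% above and 22.5% below. In RNA from a whole culture, fewer cells of a type and less RNA per cell cannot be told apart.

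CREBBP, the gene for CBP, had the firmest rise. Its normalized read counts were 2204, 1989 and 2630 with dCBP-1, against 1314, 1081 and 1396 with DMSO. The groups did not overlap, the lowest dCBP-1 library exceeding the highest DMSO library. The log2 fold change was 0.85 ± 0.15 (SE; limma adjusted p = 2.9e-05), or 1.80-fold. Without DMSO replicates 1 and 2 it was 0.69 (limma adjusted p = 0.0111).

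EP300, which encodes p300, had counts of 1419, 1342 and 2061 with dCBP-1, against 1310, 1167 and 1102 with DMSO. The dCBP-1 libraries lay above those of DMSO, narrowly for 2 of them and by a wide margin for replicate 3. The log2 fold change of 0.41 ± 0.16 was just past the threshold (limma adjusted p = 0.0488). It was 0.21 without dCBP-1 replicate 3 (limma adjusted p = 0.352), and 0.39 or 0.35 without DMSO replicate 2 or 3 alone (limma adjusted p = 0.112 and 0.121). Without DMSO replicates 1 and 2 it was 0.52 (limma adjusted p = 0.109). The antisense gene EP300-AS1, which covers the 3′ end of EP300, was at 0 to 8.26 in every library.

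The ratio of CREBBP to EP300 reads within a library needs no scaling between libraries. It was 1.55, 1.48 and 1.28 with dCBP-1 and 1.003, 0.926 and 1.27 with DMSO. The dCBP-1 libraries all had more CREBBP than EP300 reads, and the lowest of them lay just above the highest DMSO library. The mean ratio was 1.33 ± 0.254 with A-485, 1.26 ± 0.132 with GNE-781, 1.22 ± 0.142 with the combination, 1.44 ± 0.144 with dCBP-1 and 1.07 ± 0.179 with DMSO. On the log2 scale the difference from DMSO was 0.31, 0.25, 0.20 and 0.44 in the same order. Exact two-sided permutation tests gave p = 0.2, 0.2, 0.3 and 0.1, where 0.1 is the smallest that 3 against 3 libraries allow, and 0.267, 0.267, 0.3 and 0.267 after Benjamini-Hochberg adjustment over the 4 exact tests. These tests could not pass a threshold of 0.05 at this number of libraries.

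**Figure D2:**
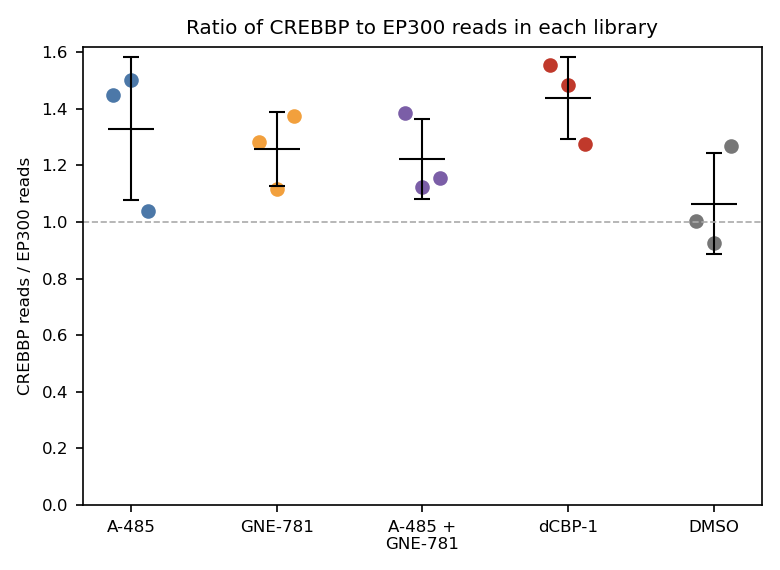
Ratio of CREBBP to EP300 reads (vertical axis, starting at 0) in each library, by treatment, with the mean and SD of 3 libraries in black and a dashed line at equal reads. The dCBP-1 libraries, at 1.28 to 1.55, lie just above the DMSO libraries, whose highest is 1.27.

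Among the p160 coactivators, NCOA1 (SRC-1) rose with dCBP-1. Its counts were 811, 929 and 908 with dCBP-1, against 469, 493 and 615 with DMSO. All dCBP-1 libraries were above all DMSO libraries, and the log2 fold change was 0.75 ± 0.16 (limma adjusted p = 0.000426). Without DMSO replicates 1 and 2 it was 0.52 and not called (limma adjusted p = 0.0900).

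NCOA2 (GRIP1) had counts of 479, 498 and 363 with dCBP-1, against 631, 530 and 575 with DMSO. The groups did not overlap, but the log2 fold change of -0.38 ± 0.16 missed the threshold (limma adjusted p = 0.0550). It passed in 6 of 19 alternatives, among them TMM scaling (limma adjusted p = 0.0312), edgeR (adjusted p = 0.0352) and DESeq2 (adjusted p = 0.0171). NCOA3 (SRC-3) had 1388, 1206 and 944 with dCBP-1, against 678, 1105 and 1486 with DMSO. These overlapped widely, with the DMSO libraries alone spanning the whole dCBP-1 range, and the log2 fold change was 0.17 (95% interval -0.23 to 0.56, limma adjusted p = 0.531). The value was -0.35 without DMSO replicates 1 and 2 (limma adjusted p = 0.253). SULF2, a heparan sulfate sulfatase gene, covers the 3′ end of NCOA3 on the opposite strand in the GENCODE annotation, and the sources used here do not state whether counting used strand. SULF2 averaged 523 ± 39.0 with dCBP-1 and 1082 ± 102 with DMSO, so the NCOA3 value is uncertain.

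The KAT2 paralogs both fell. KAT2A had counts of 607, 574 and 410 with dCBP-1, against 764, 1109 and 847 with DMSO. Every dCBP-1 library was lower than every DMSO library. The log2 fold change was -0.77 ± 0.17 (limma adjusted p = 0.00065), and -0.69 without DMSO replicates 1 and 2 (limma adjusted p = 0.03002).

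KAT2B had the largest fall of the 10. Its counts were 344, 309 and 174 with dCBP-1, against 512, 602 and 641 with DMSO. The highest dCBP-1 library lay well under the lowest DMSO library, and dCBP-1 replicate 3 was the lowest of all 15. The log2 fold change was -1.14 ± 0.22 (limma adjusted p = 0.00011), or 0.455-fold. It was -1.27 without DMSO replicates 1 and 2 (limma adjusted p = 0.00368).

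Of the MYST family genes, KAT6B (MORF) fell, with counts of 514, 493 and 517 with dCBP-1, against 668, 627 and 836 with DMSO. The dCBP-1 libraries were close together and below all DMSO libraries, and the log2 fold change was -0.47 ± 0.15 (limma adjusted p = 0.0118). Leaving out DMSO replicate 3, the highest, gave -0.35 (limma adjusted p = 0.0661), and leaving out DMSO replicates 1 and 2 gave -0.72 (limma adjusted p = 0.00781).

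Its paralog KAT6A (MOZ) had 3500, 3482 and 3976 with dCBP-1, against 2507, 2863 and 3524 with DMSO. The groups overlapped through DMSO replicate 3, and the log2 fold change was 0.31 ± 0.13 (limma adjusted p = 0.0678). It passed in 6 of 19 alternatives, among them TMM scaling (limma adjusted p = 0.0101), edgeR (adjusted p = 0.0133) and DESeq2 (adjusted p = 0.0107). That value was 0.05 without DMSO replicates 1 and 2 (limma adjusted p = 0.873). KAT8 had 190, 176 and 190 with dCBP-1, against 192, 289 and 236 with DMSO. These did not overlap, by a narrow margin, and the log2 fold change was -0.35 (95% interval -0.73 to 0.04, limma adjusted p = 0.153).

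**Figure D3:**
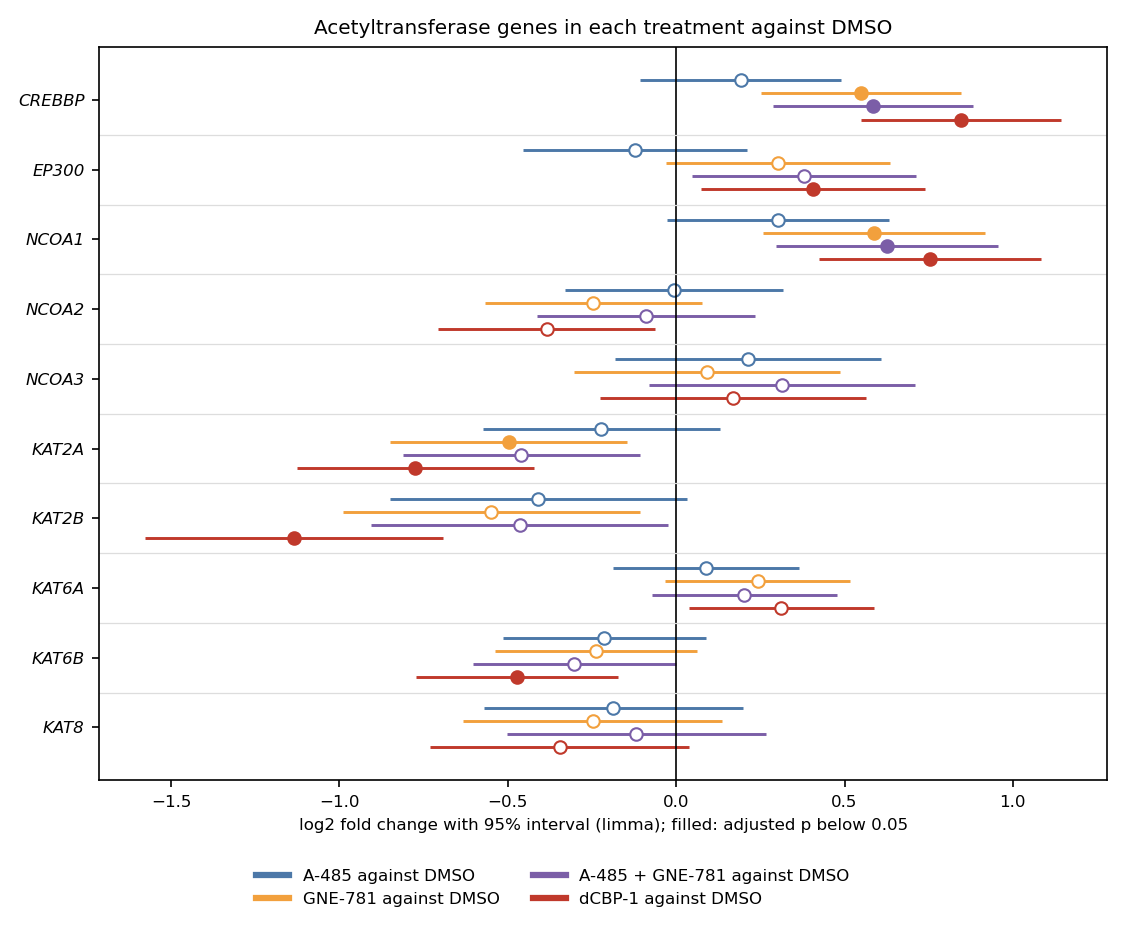
Log2 fold change against DMSO (horizontal axis) with its 95% interval from limma for the 10 genes (rows) under 4 treatments, filled where the adjusted p was below 0.05. With dCBP-1, CREBBP at 0.85, NCOA1 at 0.75, EP300 at 0.41, KAT6B at -0.47, KAT2A at -0.77 and KAT2B at -1.14 are filled, and no A-485 point is.

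GNE-781 alone changed 3 of the 10 genes, where 16.6% of all genes tested were called, 7.82% rising and 8.81% falling. CREBBP and NCOA1 rose and KAT2A fell. The median log2 fold change was -0.07 over the 10 genes and 0.07 over all genes tested. This comparison and the others against DMSO share the same 3 DMSO libraries, so they are not independent of each other.

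CREBBP had counts of 2000, 1886 and 1648 with GNE-781, against 1314, 1081 and 1396 with DMSO. The groups did not overlap, and the log2 fold change was 0.55 ± 0.15 (limma adjusted p = 0.00938). NCOA1 counts were 750, 851 and 759 with GNE-781, against 469, 493 and 615 with DMSO. These too did not overlap (0.59 ± 0.16, limma adjusted p = 0.0118). KAT2A had 542, 615 and 764 with GNE-781, against 764, 1109 and 847 with DMSO. GNE-781 replicate 3 and DMSO replicate 1 were nearly equal, and the log2 fold change was -0.50 ± 0.17 (limma adjusted p = 0.0452).

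Against DMSO replicate 3 alone, the 3 genes with GNE-781 were at 0.40 for CREBBP, 0.35 for NCOA1 and -0.42 for KAT2A. Each was smaller in size than with all 3 DMSO libraries. With 1 DMSO library, that fit cannot tell a lost change from a lack of libraries. Leaving out DMSO replicate 2 alone gave 0.44 for CREBBP, 0.55 for NCOA1 and -0.34 for KAT2A (limma adjusted p = 0.0805, 0.0551 and 0.258). CREBBP also lost its call without GNE-781 replicate 1 (0.49, limma adjusted p = 0.0620), and NCOA1 without DMSO replicate 1 (0.51, limma adjusted p = 0.0558) or GNE-781 replicate 2 (0.53, limma adjusted p = 0.0647). KAT2A lost its call without GNE-781 replicate 1 (-0.38, limma adjusted p = 0.218) or 2 (-0.48, limma adjusted p = 0.127). KAT2B counts were 322, 453 and 431 with GNE-781, against 512, 602 and 641 with DMSO. They did not overlap, but the log2 fold change of -0.55 ± 0.22 missed the threshold (limma adjusted p = 0.0796). The EP300 value was 0.30 with a 95% interval of -0.03 to 0.63.

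The combination of A-485 and GNE-781 raised CREBBP and NCOA1, 2 of the 10 genes, where 21% of all genes tested were called, 11.4% rising. The median log2 fold change was 0.06 over the 10 genes and 0.09 over all genes tested. CREBBP had counts of 1726, 2080 and 1860 with the combination, all above its DMSO counts (0.58 ± 0.15, limma adjusted p = 0.00461). NCOA1 had 634, 901 and 915, the lowest of which was only slightly above the highest DMSO library, at 615 (0.63 ± 0.16, limma adjusted p = 0.00603). Without DMSO replicates 1 and 2, CREBBP was at 0.43 (limma adjusted p = 0.209) and NCOA1 at 0.39 (limma adjusted p = 0.330). KAT2A, at 592, 610 and 763 with the combination, was just under the lowest DMSO count of 764 (-0.46 ± 0.17, limma adjusted p = 0.0558). With TMM scaling, KAT2A and KAT6B were also called, at -0.49 and -0.33 (limma adjusted p = 0.0278 and 0.0231).

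A-485 alone changed none of the 10 genes, where 2.14% of all genes tested were called by limma. By unadjusted limma p none was below 0.05, beside 2525 of the 16104 genes tested, and edgeR and DESeq2 also called none of the 10. The median log2 fold change was -0.06 over the 10 genes and -0.03 over all genes tested. CREBBP had counts of 1701, 1477 and 1175 with A-485, against 1314, 1081 and 1396 with DMSO. These overlapped, and the log2 fold change was 0.19 with a 95% interval of -0.11 to 0.49. EP300 had 1175, 983 and 1132 with A-485, against 1310, 1167 and 1102 with DMSO, and a value of -0.12 with an interval of -0.45 to 0.21. For KAT2B the A-485 counts of 503, 360 and 466 lay below all DMSO counts, though by a small margin (-0.41, interval -0.85 to 0.03). The direct comparison of the inhibitors is given further on.

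Setting dCBP-1 against A-485 takes the DMSO libraries out of the fold change. CREBBP, EP300 and NCOA1 were higher with dCBP-1, and KAT2A and KAT2B were lower, 5 of the 10 genes, where 24.5% of all genes tested were called, 12.9% higher and 11.6% lower. The log2 fold changes were 0.65 for CREBBP (limma adjusted p = 0.0011), 0.53 for EP300 (limma adjusted p = 0.0161) and 0.45 for NCOA1 (limma adjusted p = 0.0389). KAT2A differed by -0.55 (limma adjusted p = 0.0176) and KAT2B by -0.73 (limma adjusted p = 0.0130). The dCBP-1 libraries did not overlap the A-485 libraries for these 5 genes and for KAT6B, 6 of the 10, where 39.1% of all genes tested did not overlap. With TMM scaling NCOA2 and KAT6B were also lower, at -0.44 and -0.32 (limma adjusted p = 0.0164 and 0.0241), which makes 7 of the 10. Over all genes tested, TMM scaling had 2109 of 16104 higher and 2408 lower. Without dCBP-1 replicate 3, CREBBP was the 1 gene of the 10 still called. The calls of KAT2A and KAT2B were also lost without A-485 replicate 1 (-0.43 and -0.63), those of EP300 and NCOA1 without A-485 replicate 2 (0.45 and 0.43), those of NCOA1 and KAT2B without A-485 replicate 3 (0.31 and -0.68), and that of NCOA1 without dCBP-1 replicate 2 (0.41). The library of dCBP-1 replicate 3, the shallowest at 13.10 M reads, had the highest CREBBP and EP300 counts and the lowest KAT2A and KAT2B counts of all 15.

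Against GNE-781 and against the combination, dCBP-1 differed in none of the 10 genes by limma, where 9.31% and 6.17% of all genes tested were called. KAT2B came nearest. It had 344, 309 and 174 with dCBP-1, against 322, 453 and 431 with GNE-781 and 334, 379 and 593 with the combination. The groups overlapped through dCBP-1 replicate 1 alone. The log2 difference was -0.59 from GNE-781 (95% interval -1.03 to -0.14, limma adjusted p = 0.0913) and -0.67 from the combination (interval -1.11 to -0.23, limma adjusted p = 0.0632). For CREBBP it was 0.30 (interval -0.00 to 0.59) and 0.26 (interval -0.04 to 0.56). EP300 differed by 0.10 (interval -0.23 to 0.44) and 0.03 (interval -0.31 to 0.36). By unadjusted limma p, 1 of the 10 was below 0.05 in each of these comparisons, KAT2B. Of the 16104 genes tested, 3409 were below it against GNE-781 and 2589 against the combination. DESeq2 called KAT2B against the combination (adjusted p = 0.0397) but not against GNE-781.

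**Figure D4:**
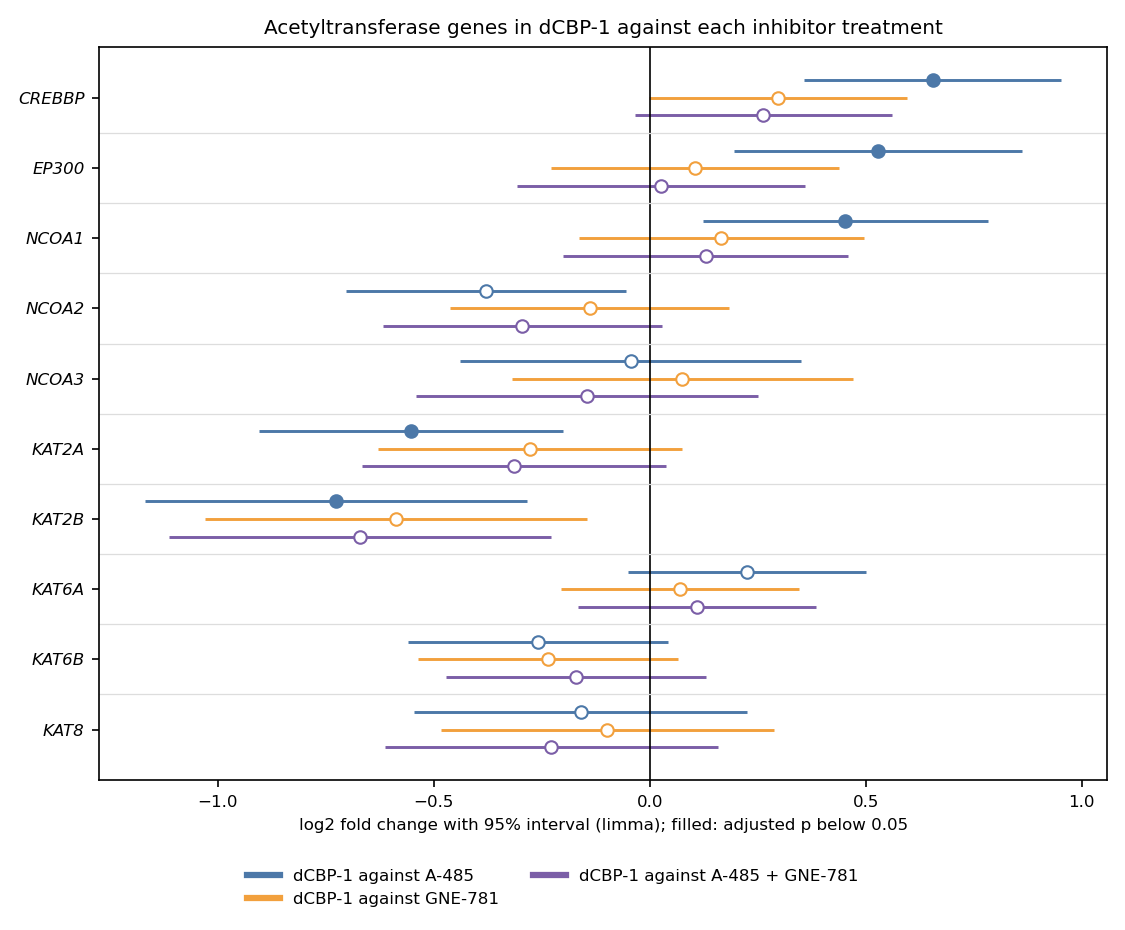
Log2 fold change of dCBP-1 against each inhibitor treatment (horizontal axis) with its 95% interval from limma for the 10 genes (rows), filled where the adjusted p was below 0.05. The 5 filled points are all against A-485, from 0.65 for CREBBP to -0.73 for KAT2B.

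The inhibitor treatments differed from each other in none of the 10 genes by limma. The combination against A-485, where 3.2% of all genes tested were called, had EP300 at 0.50 (95% interval 0.17 to 0.83, limma adjusted p = 0.0831) and CREBBP at 0.39 (interval 0.09 to 0.69, limma adjusted p = 0.136). By unadjusted limma p, 2 of the 10 were below 0.05, beside 2868 of the 16104 genes tested. EP300 had counts of 1248, 1850 and 1610 with the combination, against 1175, 983 and 1132 with A-485. The groups did not overlap. A-485 against GNE-781, where 1% of all genes tested were called, had EP300 at -0.42 (interval -0.76 to -0.09) and CREBBP at -0.36 (interval -0.66 to -0.06), with limma adjusted p = 0.266 and 0.297. These same 2 genes were the ones below 0.05 by unadjusted limma p, beside 1991 of the 16104 genes tested. EP300 again did not overlap, its GNE-781 counts being 1559, 1689 and 1198.

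The combination against GNE-781 had 0% of all genes tested called by limma, and 494 of the 16104 below an unadjusted p of 0.05. The differences of the 10 genes ran from -0.06 for KAT6B to 0.22 for NCOA3, all with overlapping libraries and an unadjusted limma p above 0.05. For CREBBP the value was 0.03 (interval -0.26 to 0.33) and for EP300 0.08 (interval -0.25 to 0.41). Non-additivity, which sets the log2 response to the combination against the sum of the log2 responses to A-485 and to GNE-781, was called in none of the 10 and in 0.447% of all genes tested. KAT2B had the value farthest from 0, at 0.49 (interval -0.13 to 1.12, limma adjusted p = 0.727).

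Genes around the acetyltransferases were described by 9 lists of complex subunits, partners and opposing enzymes, 124 genes of which 121 were tested. TADA2A, TAF9 and NCOA4 were not analysed here. With dCBP-1 against DMSO, 62 of the 121 were called, 30 rising and 32 falling (51.2%), beside 37.8% of all genes tested. With A-485, 6 were called (4.96%, beside 2.14% of all genes tested). GNE-781 had 27 (22.3%, beside 16.6%) and the combination 35 (28.9%, beside 21%). For the counts of each list with dCBP-1 below, 19.3% of all genes tested rose and 18.5% fell. The lists were chosen with earlier results of these data known, so these shares are a description.

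Subunits of the KAT2A and KAT2B complexes SAGA and ATAC moved both ways, 3 of 21 rising and 6 falling with dCBP-1. TAF6L, a histone-fold subunit of SAGA, fell to 54.0 ± 11.99 with dCBP-1, against 295 ± 103 with DMSO (log2 fold change -2.38, limma adjusted p = 1.1e-08). It was also lower with A-485 (-1.57, limma adjusted p = 0.0011). TRRAP, the scaffold that activators contact, fell by 1.03 on the log2 scale and WDR5, an ATAC subunit, by 0.72. SUPT7L, of the SAGA core, rose by 1.002. The list's median was -0.09, beside 0.07 over all genes tested.

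Of 9 subunits of KAT6 and KAT7 complexes, 4 fell and 1 rose with dCBP-1, with a median of -0.30. The 3 JADE genes, scaffolds that direct KAT7 to histone H4, all fell. JADE1 averaged 972 ± 31.9 with dCBP-1 and 2052 ± 203 with DMSO (log2 fold change -1.07, limma adjusted p = 2.1e-07), and JADE2 and JADE3 fell by 0.86 and 0.96. ING4, a reader of methylated histone H3, rose by 1.21. In the MSL and NSL complexes of KAT8, 1 of 10 rose (KANSL3, 0.51) and 3 fell (MSL1, MSL2 and the glycosyltransferase gene OGT, by 0.32 to 0.46), with a median of -0.12. Each of these 4 calls was lost when at least 1 single library was left out. MSL2 rested on the DMSO libraries, at -0.10 without DMSO replicate 3 (limma adjusted p = 0.592), -0.69 without DMSO replicate 1 and -1.16 without DMSO replicates 1 and 2. KANSL3 was at 0.11 without DMSO replicates 1 and 2 (limma adjusted p = 0.718) and OGT at -0.52 (limma adjusted p = 0.122). In the NuA4 complex of KAT5, 5 of 15 rose and 2 fell, with a median of 0.02. BRD8, its bromodomain subunit, rose by 1.26, YEATS4 by 0.80 (0.52 without DMSO replicates 1 and 2) and ING3 by 0.52 (0.30 and not called without them, limma adjusted p = 0.233), and RUVBL1, an ATPase, fell by 0.91.

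Of 15 partners and inhibitors of CBP and p300, 6 rose and 3 fell with dCBP-1, with a median of 0.22. CITED2, whose protein competes with HIF-1α for CBP and p300, fell to 144 ± 27.2 with dCBP-1, against 602 ± 91.9 with DMSO (log2 fold change -2.06, limma adjusted p = 1.7e-07). CRTC2, a CREB coactivator, fell by 2.34 and HIF1A by 0.55, and CRTC3 rose by 0.74. Without DMSO replicates 1 and 2, CRTC2 was at -1.97 and HIF1A at -0.45, neither called (limma adjusted p = 0.154 and 0.106).

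Nuclear receptor coregulators had the lowest median of the 9 lists, -0.68, with 6 of 11 falling and 3 rising. PPARGC1B, a coactivator of mitochondrial metabolism genes, fell to 101 ± 6.50 with dCBP-1, against 438 ± 63.3 with DMSO (log2 fold change -2.10, limma adjusted p = 7.2e-11). With A-485 its value was 0.03. The arginine methyltransferase gene PRMT1 fell by 1.16, and NCOA7 rose by 1.14.

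Among 18 histone deacetylases and sirtuins, which remove the mark, 5 fell and 4 rose with dCBP-1, with a median of 0.09. HDAC4, HDAC5 and HDAC9, class IIa enzymes, were among those that fell, and the class IIa gene HDAC7 was at 0.08 (limma adjusted p = 0.824). HDAC9 averaged 66.1 ± 9.06 with dCBP-1 and 479 ± 43.2 with DMSO (log2 fold change -2.84, limma adjusted p = 4.7e-13), and it was also called with A-485, GNE-781 and the combination, at -0.71, -1.60 and -1.95. HDAC4 fell by 1.42 and HDAC5 by 0.80, and SIRT6 rose by 0.73 (0.32 without DMSO replicates 1 and 2, limma adjusted p = 0.237). In the list labelled acetyl-CoA supply, 5 of 10 rose and 3 fell, with a median of 0.29. It was not divided into genes whose products make acetyl-CoA and genes whose products use it. ACAT2 rose by 1.16 and PDHA1, of pyruvate dehydrogenase, by 0.67, and the citrate carrier gene SLC25A1 and the acetyl-CoA synthetase gene ACSS1 fell by 0.88 and 0.71. Against DMSO replicate 3 alone, SLC25A1 was at -0.26 (limma adjusted p = 0.372), ACSS1 at -1.15 (limma adjusted p = 0.000132) and PDHA1 at 0.58 (limma adjusted p = 0.0867). PDHA1 was at 0.43 without dCBP-1 replicate 3. Of 12 other lysine acetyltransferases, 2 rose, ESCO1 by 0.54 and the tubulin acetyltransferase gene ATAT1 by 0.78, and no other was called. In the fit without DMSO replicates 1 and 2 they were at 0.38 (limma adjusted p = 0.225) and 1.15 (limma adjusted p = 0.0411). All 34 list genes taken by the naming rule kept their direction without DMSO replicates 1 and 2. They were picked by their p for dCBP-1 against DMSO. That fit uses the same dCBP-1 libraries and DMSO replicate 3 again, so this is no independent check.

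**Figure D5:**
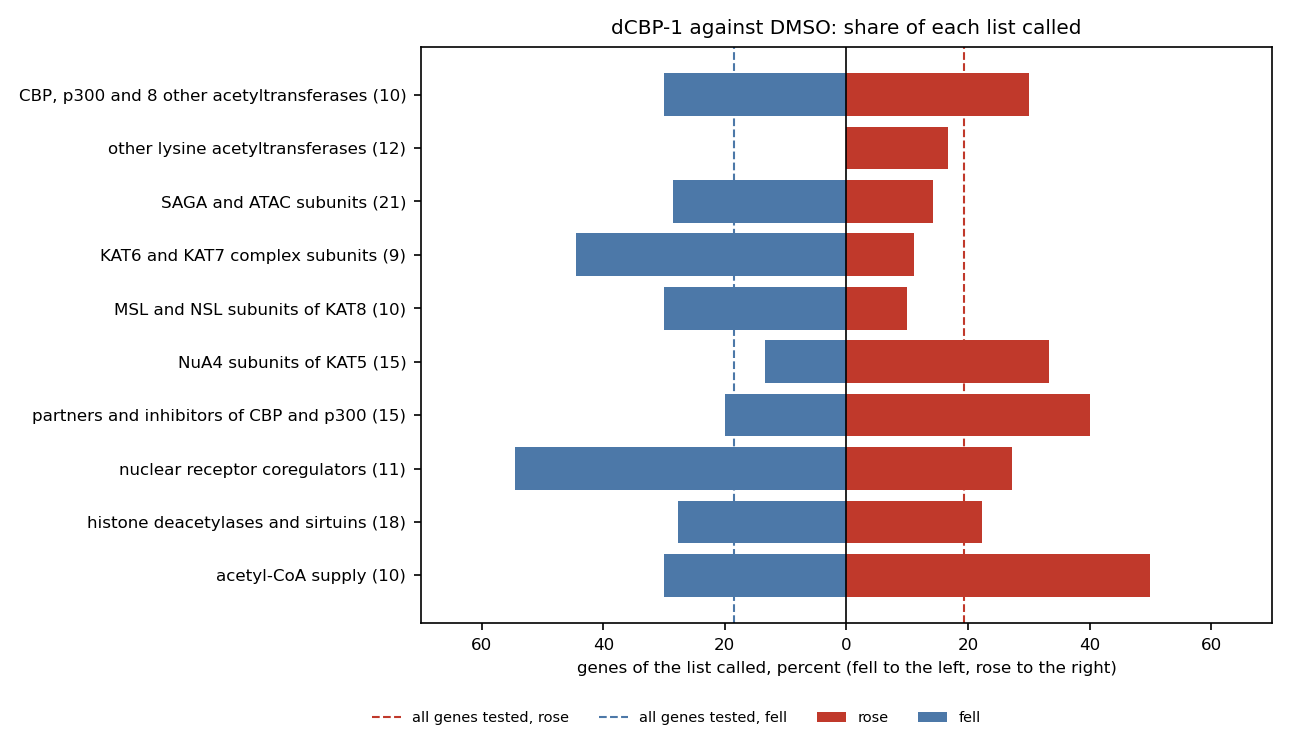
Share of each gene list called with dCBP-1 against DMSO (horizontal axis, percent), rising to the right in red and falling to the left in blue, with the number of genes tested beside each name. Dashed lines give the shares over all genes tested, 19.3% rising and 18.5% falling.

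As a description over the 15 libraries, the genes whose log2 values followed CREBBP most closely were RETSAT, MCM10, SUCLG1, CERT1 and NCAPG, with Pearson's r of 0.9745 to 0.9802. Those closest to EP300 were BOD1L1, SEPTIN7P2, TMBIM4, TAMM41 and RNPC3, at 0.920 to 0.933. CREBBP and EP300 correlated with each other at 0.764. CREBBP correlated with NCOA1 at 0.881, with KAT2A at -0.79 and with KAT2B at -0.72. The libraries fall into 5 treatments and share their depth and scaling, so these values carry no test.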

How the data were processed

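Transcripts were counted in 15 libraries of MM.1S cells. Per the labels' protocols, lysates held ERCC spike-ins and the kit was Lexogen QuantSeq, which primes at 3′ ends, and the submitters' processing notes name hg19. The aligner, the counting tool and the strandedness of counting are not given in the sources used here. The authors deposited 1 signal value for each gene and library under the name of normalized read counts. On testing the file, 100% of values were whole reads divided by 1 factor per library, within 0.01 of a read, so the reads could be recovered. How the factors were obtained is not stated. No ERCC row was in the table used here, and whether the factors draw on the spike-ins is not given, so the values are not read as RNA per cell. For 2 combination libraries the treatment field has GNE-782 or GNE-783 as the inhibitor, and the molecule field says genomic DNA. Titles were followed.

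Values were taken as log2(value + 1). Genes were tested that reached 5 in 3 or more libraries, with limma-trend (limma 3.58.1 under R 4.3.3), two-sided, in a single model with a mean for each of the 5 groups, with Benjamini-Hochberg adjustment over 16104 genes and a call below 0.05. Fits were tested on simulated data. As alternatives, scaling was changed to TMM, to median ratios or to quantile normalization, the pseudocount to 0.25 or 5, and the filter to none or to 20. Further alternatives fitted the compared groups alone, a robust prior or a replicate block, used edgeR 4.0.16 or DESeq2 1.42.0 on recovered reads, or left out each library in turn. Leaving out DMSO replicates 1 and 2 together was added after seeing the data. The members and the gene lists were chosen with earlier results of these data known. Named are the 10 members and up to 4 called genes of each list with the smallest p for dCBP-1 against DMSO. Also named are the 5 genes with the highest correlation with CREBBP and with EP300, within the limits given above. Of the genes this rule takes, 1 is not reported here. HDAC7 and SULF2 were named after their values were seen. Symbols matched 45779 of the identifiers (96.5%). Which genes overlap was read from GENCODE 29. Protein sequences were not used here.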

Additional observations from a re-analysis of the deposited data

How the results depend on the processing

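Of 2089 values of the 10 genes under an alternative, 1999 kept their side of the threshold, 41 lost a call, 49 gained one and no called value changed sign. With dCBP-1 against DMSO, CREBBP, KAT2A and KAT2B were called in all 19 alternatives, NCOA1 and KAT6B in 18 and EP300 in 10, while NCOA2 and KAT6A, not called as reported, were called in 6 each. The number called was 8 with TMM, edgeR and DESeq2. For the 6 genes called as reported, values without DMSO replicates 1 and 2 are given with each gene above. The number of genes called with GNE-781 ran from 0 to 4 as single libraries were left out. For the combination it was 4 with TMM, median-ratio scaling, edgeR and DESeq2, and 5 with quantile normalization. It was 2 to 4 as single libraries were left out. Without DMSO replicates 1 and 2, CREBBP was at 0.43 and NCOA1 at 0.39 with the combination. For dCBP-1 against the combination it was 1 with DESeq2 and 0 to 1 with libraries left out, and against GNE-781 it was 1 with quantile normalization and 0 to 1 with libraries left out. For dCBP-1 against A-485 it was 7 with TMM, median-ratio scaling, quantile normalization, edgeR and DESeq2 and 1 to 5 with libraries left out, and for the combination against A-485 0 to 1 with libraries left out. Leaving libraries out leaves fewer samples, and otherwise the cause was not tested. Over all 16104 genes tested the number called moved too. With dCBP-1 against DMSO, 3105 were higher and 2987 lower as reported, and 3599 and 3195 with TMM. In that comparison edgeR gave 3409 and 3203, and DESeq2 3400 and 3431. With dCBP-1 against A-485 these were 2077 and 1870 as reported, 2109 and 2408 with TMM, and 1535 and 1521 without dCBP-1 replicate 3. GNE-781 against DMSO had 1260 and 1419 as reported, 618 and 849 without GNE-781 replicate 1, and 2375 and 1314 without DMSO replicate 3. The combination against DMSO had 1837 and 1546 as reported, 2210 and 1996 with TMM, and 2264 and 1910 with quantile normalization. For it, edgeR gave 2054 and 2043, and DESeq2 2080 and 2295. Same-number libraries of different groups correlated at -0.524 to 0.397 in their deviations from group means, 7 of 30 pairs above 0.1. Different-number libraries correlated at -0.615 to 0.613, 27 of 60 pairs above 0.1. The highest value was that of combination replicate 2 with dCBP-1 replicate 3. What these libraries share was not tested. With a replicate block, 5 of the 10 genes were called with dCBP-1, 2 with GNE-781, 2 with the combination and 0 with A-485 against DMSO. With dCBP-1 against A-485, 4 were called. Over all 16104 genes the block had 2928 higher and 2864 lower with dCBP-1, and 1060 and 1257 with GNE-781. It had 1622 and 1414 with the combination, 39 and 196 with A-485, and 1882 and 1742 with dCBP-1 against A-485. Of the list genes, ATAT1, CRTC3, ESCO1, KANSL3, MSL1, MSL2 and OGT each lost their call when at least 1 single library was left out. With 3 libraries a group, the width of the printed intervals limits which changes could be seen.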
